A study of Equus caballus with 2 samples.

Results

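The ADAM sheddases are described here in equine endometrial fibroblasts cultured with or without transforming growth factor beta 1 (TGF-β1). The family was taken as 8 listed genes, ADAM8, ADAM9, ADAM10, ADAM12, ADAM15, ADAM17, ADAM19 and ADAM33. Of these, 7 had a row under their symbol among the 21426 genes of the deposited matrices, and ADAM8, which is best known from leukocytes, had no row under this symbol and was not analysed here. The rule picks them by symbol and uses no measured value, but the list was chosen with earlier results of these data known. Their Ensembl identifiers are ENSECAG00000006442 (ADAM9), ENSECAG00000007963 (ADAM10), ENSECAG00000012744 (ADAM12), ENSECAG00000008411 (ADAM15), ENSECAG00000005760 (ADAM17), ENSECAG00000017922 (ADAM19) and ENSECAG00000023637 (ADAM33) in the EquCab3.0 annotation.

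The study exposed fibroblasts from the endometrium of mares to TGF-β1, a growth factor that promotes fibrosis, and profiled them by single cell sequencing. Both groups were cultured on hydrogels coated with collagen, were kept without serum in 0.1% BSA from 48 to 72 h and were harvested with trypsin. The TGF-β1 group received 10 ng/ml of the human recombinant protein for these 24 h, and the control group received nothing further. Each group was 1 droplet library in which cells from the study's 4 mares with healthy or mildly fibrotic endometrium had been pooled, and the mares' shares of each library were not determined here.

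Unique molecular identifiers (UMIs), each the tag of 1 captured transcript, were counted in kept cells, those in which UMIs reached 20000, detected genes reached 3500 and mitochondrial genes took less than 4% of UMIs. These were 3865 of 4384 control barcodes (88.2%) and 4513 of 5124 TGF-β1 barcodes (88.1%), with 210497250 and 219731144 UMIs in all and medians of 50313 and 43142 UMIs per cell. The libraries shared 6 barcode sequences, 2 of them among kept cells. The label as fibroblasts was compared with marker genes. The 6 fibroblast markers summed to 20897 CPM (UMIs scaled to a library total of 1000000) in control and 21127 CPM in TGF-β1, with VIM at 4399 and 2240 CPM, PDGFRB at 80.1 and 49.0 CPM, DCN at 2098 and 1795 CPM and the 3 collagen genes higher in TGF-β1, while the epithelial, endothelial and leukocyte lists each summed to under 1 CPM in both libraries. The epithelial list held no keratin with a row. When 20000 UMIs were drawn at random per cell, KRT8, outside that list, was found in 986 control and 159 TGF-β1 cells. A list of 5 smooth muscle and pericyte markers summed to 1091 CPM in control and 1622 CPM in TGF-β1, with ACTG2 at 349 and 965 CPM, RGS5 at 51.7 and 61.1 CPM, DES at 646 and 569 CPM, MYH11 at 42.9 and 25.3 CPM and CSPG4 at 1.07 and 1.11 CPM. The part of that list in the results was not tested.

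Because each group is 1 library, the values below come without a test or a p-value. Condition and library preparation cannot be told apart, and in summed counts a different mix of cells and a different amount of RNA per cell cannot be told apart either. Intervals are at the 95% level and cover counting error only, not the difference between mares or cultures.

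ADAM proteins are metalloproteinases anchored in the cell membrane, made with an inhibitory prodomain that proprotein convertases such as furin remove. They cut other membrane proteins close to the membrane, a step called ectodomain shedding, which frees growth factors and cytokines, clips receptors and adhesion molecules, and leaves stubs that gamma-secretase can cut further. In connective tissue they are studied for releasing ligands of the EGF receptor, for cutting Notch receptors and cadherins, and for the appearance of ADAM12 in mesenchymal cells of fibrotic and healing tissue.

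ADAM12 and ADAM19 were the members with higher levels in the TGF-β1 library. ADAM12 (meltrin alpha), which has a membrane-bound and a secreted form and cuts IGF binding proteins and HB-EGF, stood at 93.7 CPM in control (19717 UMIs) and at 225 CPM in TGF-β1 (49535 UMIs). On the log2 scale the ratio to control was 1.27 (1.24 to 1.29), which is 2.41-fold higher. The gene counts do not separate its membrane-bound and secreted forms. ADAM19 (meltrin beta), which sheds neuregulin, stood at 37.6 CPM in control (7924 UMIs) and at 71.0 CPM in TGF-β1 (15606 UMIs), a log2 ratio of 0.92 (0.88 to 0.96) or 1.89-fold higher. Among the 12116 genes whose mean over the libraries reached 1 CPM, these ratios lay at the 97.7 and 96.1 percentiles.

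The main sheddases of most cells, ADAM10 and ADAM17, differed least between the libraries. ADAM10, which cuts Notch receptors, N-cadherin and amyloid precursor protein, was measured at 37.6 CPM in control and 33.8 CPM in TGF-β1 (7910 and 7429 UMIs). Its log2 ratio was -0.15 (-0.20 to -0.11), or 1.11-fold lower. ADAM17, the TNF converting enzyme, which also releases amphiregulin, TGF alpha and other EGF family ligands, was measured at 39.4 and 37.8 CPM (8293 and 8306 UMIs), a log2 ratio of -0.060 (-0.10 to -0.016) or 1.04-fold lower. Both ratios were small beside those of ADAM12 and ADAM19.

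The other 3 members were lower in the TGF-β1 library. ADAM9 (meltrin gamma), a widely expressed sheddase that can cut HB-EGF, stood at 265 CPM in control and 197 CPM in TGF-β1 (55873 and 43319 UMIs), a log2 ratio of -0.43 (-0.45 to -0.41) or 1.35-fold lower. ADAM33, a gene of mesenchymal cells that was linked to asthma in genetic studies, stood at 104 and 70.4 CPM (21971 and 15472 UMIs), a log2 ratio of -0.57 (-0.60 to -0.54) or 1.48-fold lower. ADAM15, whose disintegrin domain can bind integrins, had the lowest counts, at 8.22 and 4.23 CPM (1731 and 929 UMIs), with a log2 ratio of -0.96 (-1.08 to -0.84) or 1.95-fold lower. ADAM15 and ADAM33 thus lay on opposite sides of a 1.5-fold limit, and ADAM33 lay close to it.

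By size alone, 2 of the 7 members were more than 1.5-fold higher, where 7.64% of the 12116 genes were, and 1 member was more than 1.5-fold lower, where 9.36% of genes were. In either direction 17.0% of genes were past this limit, and 6.91% were past 2-fold. At a limit of 2-fold, ADAM12 remained on the higher side, where 3.45% of genes were, and no member remained on the lower side, where 3.46% were. The median log2 ratio was -0.15 over the 7 members, of which 2 were higher and 5 lower, and -0.011 over the 12116 genes.

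**Figure D1:**
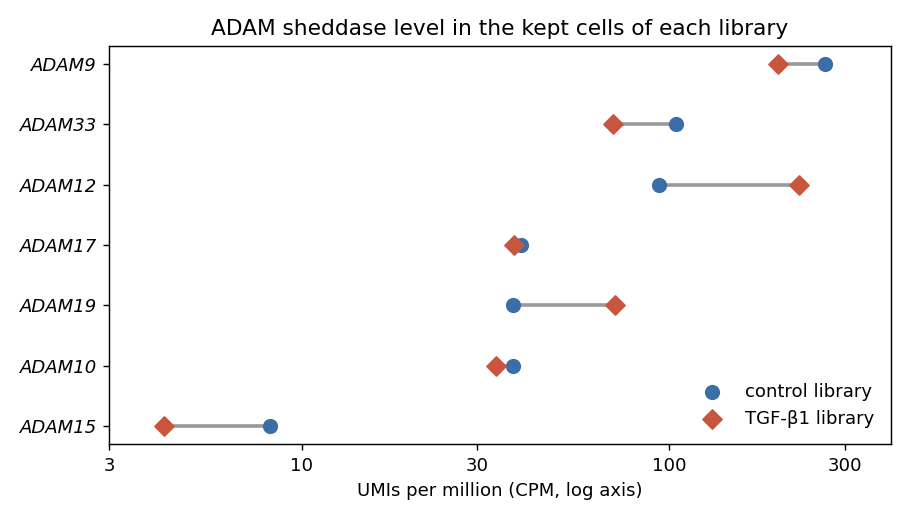
Level of the 7 measured ADAM sheddases in the kept cells of each library, in CPM on a log axis, with 1 point per library and no error bar because each group is 1 library. ADAM12 runs from 93.7 to 225 CPM and ADAM19 from 37.6 to 71.0 CPM from control to TGF-β1, while the other 5 members lie lower in TGF-β1.

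The differences ran in opposite directions within the family, so the makeup of its transcripts differed more than their sum. The 7 members together gave 586 CPM in control and 640 CPM in TGF-β1. With a 3′ kit, UMIs of different members were added without division by length. Whether gene length affects the counts of a member, and how well the annotation covers each 3′ end, was not tested. ADAM9 gave 45.3% of the family's UMIs in control and 30.8% in TGF-β1. ADAM12 gave 16.0% and 35.2%, and so stood first in the TGF-β1 library in place of ADAM9. ADAM33 gave 17.8% and 11.0%, ADAM19 6.42% and 11.1%, and ADAM10, ADAM15 and ADAM17 together the rest.

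For shares of cells, 20000 UMIs were drawn at random from every kept cell, so that depth was the same throughout (thinned cells). ADAM12 was then detected, with at least 1 UMI, in 64.6% of control cells (63.1 to 66.1) and 90.7% of TGF-β1 cells (89.9 to 91.6), and without thinning in 82.5% and 96.5%. ADAM19 was detected in 48.2% (46.6 to 49.8) and 70.8% (69.5 to 72.2) of thinned cells, and in 77.0% and 90.5% without thinning. For both genes the higher level came with more positive cells as well as more UMIs per cell, since the share of cells with 5 or more ADAM12 UMIs was 10.1% in control and 37.8% in TGF-β1, and the share with 2 to 4 ADAM19 UMIs was 16.8% and 37.4%.

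ADAM33 was detected in 81.0% of thinned control cells (79.7 to 82.2) and 64.5% of TGF-β1 cells (63.1 to 65.9), and without thinning in 94.5% and 81.9%. ADAM15 was detected in 14.8% (13.7 to 16.0) and 8.27% (7.48 to 9.11), and without thinning in 33.9% and 18.4%. ADAM9 was found in nearly every cell of both libraries, at 96.8% (96.2 to 97.4) and 93.7% (93.0 to 94.4) of thinned cells and 99.6% and 98.6% of cells without thinning. Its lower level showed mainly in the cells with 5 or more UMIs, which were 49.3% in control and 33.3% in TGF-β1.

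ADAM10 was detected in 50.9% of thinned control cells (49.3 to 52.5) and 46.6% of TGF-β1 cells (45.1 to 48.1), against 79.9% and 71.7% without thinning. The ADAM17 intervals overlapped, at 49.8% (48.2 to 51.4) and 48.3% (46.9 to 49.8), against 77.6% and 73.6% without thinning. No group of cells known to lack these genes was at hand to gauge free RNA in the droplets, and its part in these shares was not tested.

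**Figure D2:**
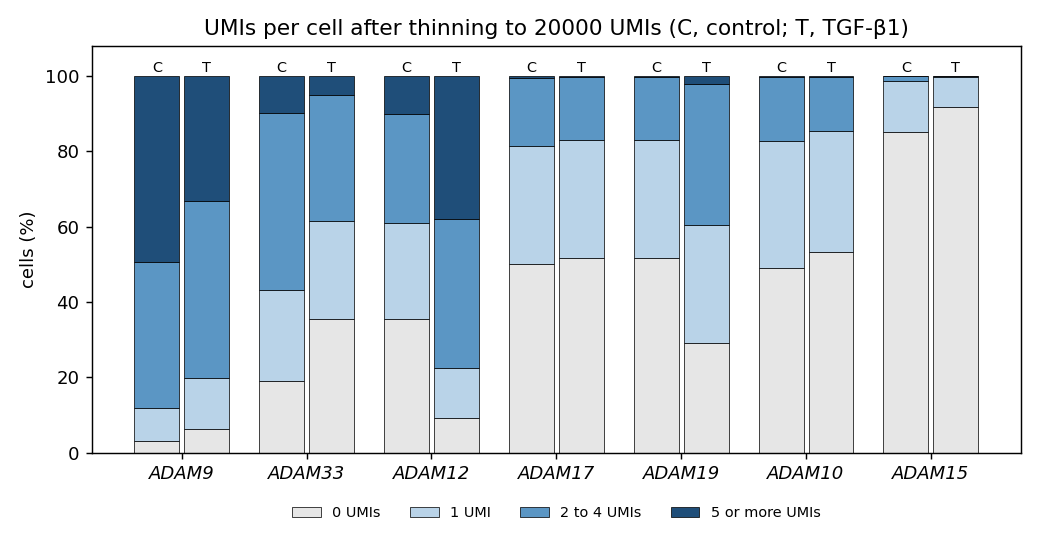
Share of kept cells (%) with 0, 1, 2 to 4, or 5 or more UMIs of each ADAM sheddase after thinning to 20000 UMIs, with the control library (C, 3865 cells) on the left and the TGF-β1 library (T, 4513 cells) on the right of each pair. The band without UMIs is smaller in TGF-β1 for ADAM12 and ADAM19 and larger for the other 5 members.

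The spread between cells differed among members. ADAM12 had a variance of 3.24 times its mean in control and 3.26 times in TGF-β1, where counts that vary by sampling alone would give a ratio of about 1. A Poisson count with the mean of the control library would be above 0 in 83.0% of cells, against the 64.6% observed, so ADAM12 transcripts were gathered in fewer cells than its mean implies. Up to 27 ADAM12 UMIs were counted in a thinned control cell and up to 29 in a thinned TGF-β1 cell. For ADAM9 the variance was 2.32 and 1.92 times the mean, and for ADAM33 1.52 and 1.81 times. ADAM10, ADAM15, ADAM17 and ADAM19 had ratios between 0.963 and 1.26 in both libraries.

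A thinned cell held UMIs of a mean of 4.06 members in control and 4.23 in TGF-β1, with a median of 4 in both. All 7 members were found together in 44 control cells (1.14%) and 46 TGF-β1 cells (1.02%), and none of them in 1 control cell and 6 TGF-β1 cells. The cells thus carried a similar number of family members in both libraries, with a different makeup.

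The cells were grouped into 8 clusters (0 to 7) to see whether the ratios were shared by different groups of cells. Whether the mares take different shares of these clusters was not determined here. Among its own clusters, the study found a cluster made almost only of a single mare's cells. Every cluster held at least 50 cells of each library. Cluster 6 was cycling-like, with all 9 of the measured cycling markers more than 2-fold above the other cells, and the other clusters are given by number. ADAM12 was higher in TGF-β1 in 8 of 8 clusters, from 0.73 on the log2 scale in cluster 7 to 1.48 in cluster 0, and more than 1.5-fold higher in each. ADAM19 was also higher in 8 of 8, from 0.74 in cluster 1 to 1.79 in cluster 7. Over all 12116 genes, 18.3% were higher in every cluster.

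ADAM9, ADAM10 and ADAM15 were lower in 8 of 8 clusters, where 23.1% of genes were lower in every cluster. In all, 5 of the 7 members had a single direction in every cluster, as did 41.4% of genes. The ADAM9 ratio ran from -0.53 in cluster 4 to -0.30 in cluster 0. That of ADAM15 ran from -1.23 in cluster 1 to -0.66 in cluster 7, more than 1.5-fold lower in each. In cluster 7 it rested on 50 and 15 UMIs, with an interval of -1.60 to 0.19, and in the other 7 clusters the interval lay below 0. The ADAM10 ratio ran from -0.45 in cluster 5 to -0.047 in cluster 1, and its interval lay below 0 in 4 of the 8 clusters. ADAM17 was lower in 6 clusters and higher in 2, with ratios from -0.31 to 0.075, and only in cluster 4 did the interval leave out 0.

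The ratio of ADAM33 differed most from cluster to cluster. It was lower in 7 of 8 clusters, and furthest so in cluster 2, with 89.9 CPM in control and 42.5 CPM in TGF-β1, a log2 ratio of -1.08 (-1.17 to -0.99). In cluster 7, the smallest, with 106 control and 55 TGF-β1 cells, it stood at 67.8 and 91.8 CPM, a log2 ratio of 0.44 (0.20 to 0.67). This was the lowest cluster level of ADAM33 in control and the second highest, after cluster 5 with 101 CPM, in TGF-β1. Median depth in cluster 7 was 48428 UMIs in control and 40154 UMIs in TGF-β1, near that of the whole libraries.

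The levels of ADAM15 and ADAM19 did not overlap between the libraries over the clusters, which held for 5.22% of genes in either direction. ADAM19 ran from 16.2 to 48.6 CPM in the control clusters and from 55.9 to 81.0 CPM in the TGF-β1 clusters, and 2.27% of all genes had every TGF-β1 cluster above every control cluster. ADAM15 ran from 6.72 to 10.5 CPM and from 3.39 to 5.55 CPM, and 2.95% of genes had every TGF-β1 cluster below every control cluster. The ADAM12 levels overlapped, because the clusters of each library differed so widely, from 27.4 to 147 CPM in control and from 53.4 to 286 CPM in TGF-β1. Clusters of a library are not replicates, and the cells in them come from a single pool.

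**Figure D3:**
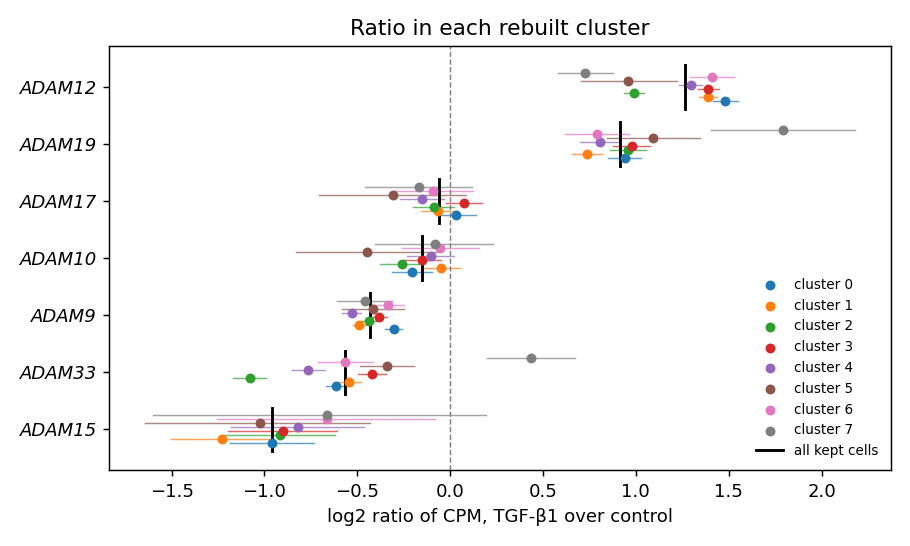
log2 ratio of CPM, TGF-β1 over control, of each ADAM sheddase in the 8 rebuilt clusters (coloured points, with 95% intervals for counting error) and over all kept cells (black bars). All points of ADAM12 and ADAM19 lie above 0, between 0.73 and 1.79, and cluster 7 is the sole ADAM33 point above 0, at 0.44.

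Cluster 5 had the lowest levels of ADAM9, ADAM10, ADAM12 and ADAM17 in both libraries. ADAM9 stood there at 100.1 CPM in control and at 75.1 CPM in TGF-β1, where the highest cluster levels were 331 and 244 CPM. ADAM12 stood at 27.4 and 53.4 CPM, and ADAM17 at 17.6 and 14.2 CPM. ADAM33, by contrast, had its highest levels in cluster 5, at 128 and 101 CPM, and ADAM15 its highest control level, at 10.5 CPM. The 158 control and 195 TGF-β1 cells of cluster 5 were the shallowest, with medians of 41981 and 33657 UMIs, and were led by MMP9 and MMP1.

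Across the 8 clusters the levels of ADAM10 and ADAM17 followed each other closely, with a Pearson correlation of log2 levels of 0.97 in control and 0.98 in TGF-β1. Without cluster 5 these were 0.93 and 0.92 over 7 clusters. ADAM12 with ADAM17 gave 0.97 and 0.95 over 8 clusters and 0.92 and 0.77 without cluster 5. ADAM9 with ADAM12 gave 0.92 and 0.98 over 8 clusters and 0.74 and 0.89 without cluster 5. ADAM19 with ADAM12 gave -0.061 and 0.44 over 8 clusters and -0.40 and 0.33 without cluster 5. These are descriptions, since the clusters share a library and were built from the same counts.

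Over the 16 sums of library and cluster, the genes most like each member were listed for the 6 members whose mean reached 10 CPM. ADAM12 was nearest to FMN1 (r = 0.98, 48.3 CPM in control and 172 CPM in TGF-β1), which encodes a formin, and to DLC1 (r = 0.98, 124 and 368 CPM), followed by DISP1 (r = 0.98). ADAM19 was nearest to ST6GAL2 (r = 0.97), KCTD10 (r = 0.97) and ITGA5 (r = 0.95), the fibronectin receptor subunit, which stood at 63.0 and 126 CPM. The genes nearest to ADAM9 were TMEM245, PCDH7 and MAML2 (r = 0.98 to 0.99). ZC3H13 was nearest to both ADAM10 and ADAM17 (r = 0.99 for each), followed by RPS6KA3 and ICE1 for ADAM10 and by RIC1 and MKLN1 for ADAM17. ADAM33 had no close match, with MRGPRF at r = 0.92, TPCN2 at 0.87 and SERTAD3 at 0.85. The sums share libraries, depth and the cluster assignment, and the correlations are descriptions.

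Co-detection was read from thinned cells as the share with UMIs of both members over the product of the separate shares, so that 1 means no association. Over the 21 pairs the median was 1.01 in control (0.971 to 1.05) and 1.00 in TGF-β1 (0.926 to 1.05). A pair with a member found in nearly every cell, such as ADAM9, or ADAM12 in TGF-β1, cannot lie far above 1 whatever the association. ADAM12 and ADAM19 were found together in 31.9% of control cells (30.4 to 33.4) and 64.5% of TGF-β1 cells (63.1 to 65.9), against products of 31.2% and 64.3%. The large difference between the libraries in this pair was thus that of the separate shares. ADAM10 and ADAM17 were found together in 26.2% and 23.6% of cells, which was 1.03 and 1.05 times the product, and 1.02 times in both libraries when the product was taken within clusters. The highest control values were those of ADAM12 with ADAM17 and of ADAM15 with ADAM33, at 1.05 each. Within clusters these pairs stood at 1.03 and 1.05. Such small departures in sparse counts are given as values only.

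**Figure D4:**
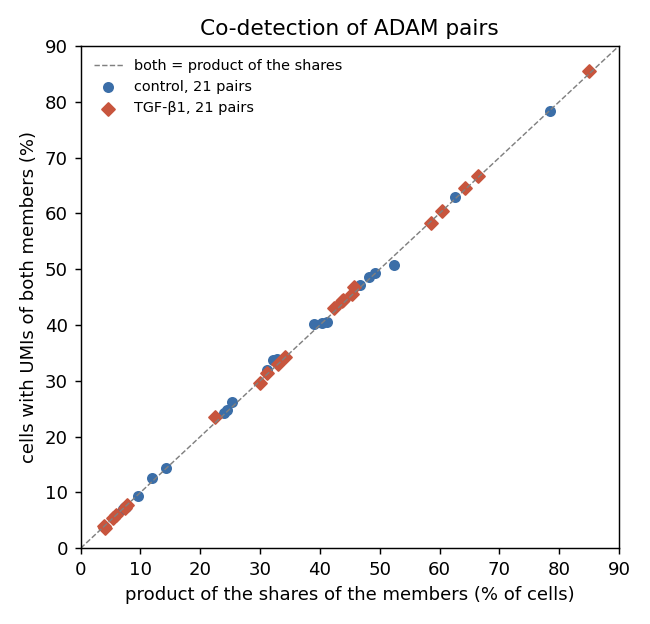
Share of thinned cells (%) with UMIs of both members of each of the 21 pairs of ADAM sheddases, against the product of the members' separate shares (%), with 1 point per pair and library and a dashed line where both are equal. The points of both libraries lie along the line, with ratios between 0.926 and 1.05.

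The proteins that govern ADAM activity were read from lists of known partners. Of the complex that brings ADAM17 to the cell surface, RHBDF1 (iRhom1) stood at 19.7 CPM in control and 10.2 CPM in TGF-β1, a log2 ratio of -0.95 (-1.02 to -0.87), or 1.93-fold lower. FRMD8, which stabilises iRhoms, stood at 12.0 and 8.64 CPM (-0.47) and RHBDF2 (iRhom2) at 1.88 and 1.40 CPM (-0.42). All 3 genes were lower in TGF-β1 while ADAM17 itself was 1.04-fold lower, and 1 of the 3 was past 1.5-fold. Over all 12116 genes, 6219 were lower and 9.36% were more than 1.5-fold lower. RHBDF1 UMIs were found in 32.8% of thinned control cells and 18.0% of TGF-β1 cells, and ADAM17 was detected in 49.8% of the RHBDF1-positive control cells and 49.8% of the negative ones, and in 50.3% and 47.9% in TGF-β1. With FRMD8 the shares were 48.2% and 50.2% in control and 47.1% and 48.5% in TGF-β1, and with RHBDF2, found in 150 control and 118 TGF-β1 cells, 52.7% and 49.7% in control and 43.2% and 48.5% in TGF-β1.

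Of the tetraspanins that carry ADAM10, TSPAN5 stood at 42.8 and 38.8 CPM (-0.14) and TSPAN14 at 15.2 and 17.0 CPM (0.16), and the other 3 with a row, TSPAN10, TSPAN15 and TSPAN33, had a mean below 1 CPM, with TSPAN33 at 0.969 and 0.555 CPM (-0.80). Of the convertases that activate ADAMs, FURIN stood at 14.2 and 19.4 CPM (0.45), PCSK5 at 220 and 197 CPM (-0.15), and PCSK6 and PCSK7 within 0.05 of 0. None of these 6 genes with a mean of 1 CPM or more was past 1.5-fold. Of the gamma-secretase genes, PSEN2 stood at 24.7 and 20.5 CPM (-0.27), NCSTN at 31.1 and 30.5 CPM (-0.030) and APH1B at 4.06 and 3.65 CPM (-0.16), and APH1A had a ratio of -0.14. None of these was past 1.5-fold, and their median was -0.15, beside -0.011 over all genes. With 17.0% of all genes past 1.5-fold in either direction, lists this short with no such gene are near the background.

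The inhibitors were split. TIMP1, which can inhibit ADAM10, was the sole one of 6 tested inhibitor rows past 1.5-fold, a limit that 17.0% of all genes passed in either direction, at 3196 CPM in control and 7898 CPM in TGF-β1 (1.31). TIMP3, the tissue inhibitor that acts on ADAM17 and several other ADAMs, stood at 31.8 and 24.0 CPM (-0.41), or 1.33-fold lower. TIMP2 stood at 760 and 646 CPM in its main row (-0.24), and a second row under this symbol at 0.817 and 1.22 CPM. RECK and SFRP1, both known to inhibit ADAM10, stood at 12.1 and 13.6 CPM (0.17) and at 132 CPM in both libraries (0.0044). The median over the 6 tested rows was 0.089, beside -0.011 over all genes.

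Of the EGF family ligands that ADAM17 and other members release, 5 of the 6 tested were more than 1.5-fold higher, each also past 2-fold, and none was lower by as much. Over all genes 7.64% were more than 1.5-fold and 3.45% more than 2-fold higher. EREG (epiregulin) stood at 77.4 CPM in control and 282 CPM in TGF-β1 (1.87), HBEGF at 16.5 and 55.5 CPM (1.75), BTC (betacellulin) at 2.55 and 6.79 CPM (1.41), and AREG (amphiregulin) and TGFA had ratios of 3.29 and 1.15. NRG1 (neuregulin), a substrate of ADAM19, stood at 20.9 and 16.2 CPM (-0.37), the sole tested ligand that was lower. The list's median was 1.58, beside -0.011 over all genes. The share of cells with ADAM17 was then read in cells with and without a UMI of each ligand. In TGF-β1 it was 48.7% of EREG-positive and 47.4% of EREG-negative cells, 49.1% and 47.3% for HBEGF, 47.0% and 48.7% for AREG, 50.1% and 48.1% for TGFA, and 44.3% and 48.6% for BTC. In control it was 50.8% and 49.2% for EREG and 49.2% and 49.95% for HBEGF. The ligands found in few control cells gave wider gaps, with 40.0% and 50.2% for AREG (170 positive cells), 56.0% and 49.4% for TGFA (207 positive cells) and 43.4% and 49.99% for BTC (122 positive cells). The sign of the gap thus differed from ligand to ligand, and none of these gaps was tested.

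Among the 32 tested substrates outside the EGF family, 5 were more than 1.5-fold higher and 10 more than 1.5-fold lower, where 7.64% and 9.36% of all genes were, with a median of -0.065. The higher ones were FAP (fibroblast activation protein), at 67.9 and 211 CPM (1.63), CDH2 (N-cadherin, a substrate of ADAM10), at 96.5 and 179 CPM (0.89), and PRNP, PTPRF and MERTK, with ratios of 0.87, 0.72 and 0.66. The lower ones included VCAM1, an adhesion molecule shed by ADAM17, with 1473 UMIs in control and 4 in TGF-β1, KITLG (stem cell factor, -2.14), MCAM (-1.72), SDC4 (syndecan 4), at 34.8 and 12.1 CPM (-1.52), and DDR1 (-1.13). The others were CSF1 (-1.05), the Notch ligand JAG1 (-0.97), both TNF receptors, TNFRSF1A and TNFRSF1B (-0.84 each), and PDGFRB (-0.71).

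The rest of these substrates lay within 1.5-fold, among them NOTCH2 at 95.3 and 84.7 CPM (-0.17), APP at 207 and 227 CPM (0.13) and CD44 at 295 and 297 CPM (0.010). TNF itself had no UMI in either library, which leaves a low level possible. Of the IGF binding proteins cut by ADAM12, IGFBP3 had a ratio of 4.87 and IGFBP5 stood at 488 and 570 CPM (0.22). ADAM12 was detected in 91.0% of IGFBP3-positive and 90.6% of IGFBP3-negative TGF-β1 cells, where its share was near the ceiling, and in 68.4% (215 positive cells) and 64.4% in control. In FAP-positive TGF-β1 cells it was detected in 91.1%, against 85.0% of the FAP-negative ones, and in control in 66.4% against 61.5%. None of these gaps was tested.

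ADAM genes outside the list of sheddases were sparse. Of 11 with a row, 3 reached a mean of 1 CPM, and of these ADAM23, which has no protease activity and binds integrins, stood at 1.28 CPM in control and 4.83 CPM in TGF-β1 (1.91). ADAM22, its catalytically inactive relative, stood at 5.77 and 8.40 CPM (0.54) and ADAM32 at 8.23 and 6.80 CPM (-0.28). ADAM7, ADAM20, ADAM29 and ADAMDEC1 had no UMI in either library.

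**Figure D5:**
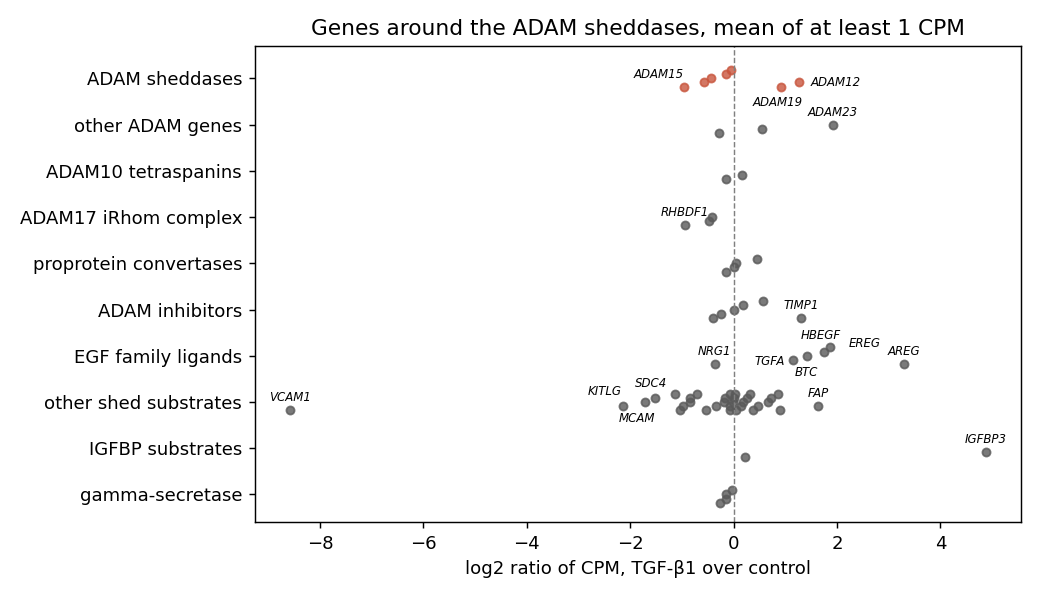
log2 ratio of CPM, TGF-β1 over control, of the ADAM sheddases and of the genes listed around them, with 1 point per gene row whose mean reached 1 CPM and a dashed line at 0 (the small vertical offsets only separate points). The EGF family ligands, with a median of 1.58, lie to the right apart from NRG1 at -0.37, the 3 genes of the iRhom complex lie to the left, and the sheddases run from -0.96 (ADAM15) to 1.27 (ADAM12).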

How the data were processed

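Single cell 3′ libraries of the control and TGF-β1 groups were analysed, while the cells given MFGE8 are not analysed here. The deposited values are raw UMI counts per gene and barcode, which the authors obtained from Cell Ranger (7.1.0 per the methods, 8.0.1 per the file headers) against EquCab3.0 with the Ensembl annotation. The filters of the study were then applied to the barcodes. Its genotype calls, which assigned mares and removed doublets, rest on the reads and were not repeated, so its test in edgeR 4.2.2 could not be run.

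UMIs of kept cells were summed per library and cluster and scaled to CPM (Python 3.11.15, numpy 2.4.6, scipy 1.17.1, pandas 2.3.3, matplotlib 3.10.9). Ratios carry no pseudocount. Intervals are exact Clopper-Pearson. Scrublet (scanpy 1.11.5) marked 2 control cells and 0 TGF-β1 cells as doublets, too few to be of use, and none was removed. Clusters were rebuilt in Seurat 5.3.0 (SeuratObject 5.2.0, R 4.3.3) with 2000 variable genes, 30 dimensions, CCA integration and resolution 0.5. They are not the clusters of the study. The ratios, their intervals and the co-detection measure were tested on simulated data.

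The members, the lists of partners and substrates and the markers were chosen with earlier results of these data known, and so were the tests and limits. Named genes are the members, those list genes whose mean reached 1 CPM, the markers, and for each member whose mean reached 10 CPM the 3 genes (also at 10 CPM or above) with the highest Pearson correlation over the sums of library and cluster. MMP9, MMP1, KRT8, TSPAN10, TSPAN15, TSPAN33, TNF, ADAM7, ADAM20, ADAM29 and ADAMDEC1 were named after their values were seen. No row was found for ADAM1, ADAM3, ADAM5, ADAM21, ADAM30, TSPAN17, CX3CL1, PCDHGC3, PSENEN, KRT18 and MKI67. The lists leave out 1 gene that is not reported here, and not every list gene within 1.5-fold is named. Depth makes the counting error small for abundant genes and larger for ADAM15. Alternatives covered the cell filters, doublets, scaling, cycling cells, limits, thinning and clustering.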

Additional observations from a re-analysis of the deposited data

How the results depend on the processing

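No paired analysis was possible because the cells of the 4 mares were pooled in each library and the calls that tell the mares apart were not used here, and with 1 library per group none could be left out. The 7 members kept their direction under the 10 alternatives of cell filter, doublet removal, scaling, cluster shares and cycling cells, with log2 ratios from 1.26 to 1.32 for ADAM12, 0.89 to 0.94 for ADAM19, -0.067 to -0.037 for ADAM17, -0.16 to -0.13 for ADAM10, -0.44 to -0.40 for ADAM9, -0.61 to -0.54 for ADAM33 and -1.0 to -0.93 for ADAM15. With cluster shares standardised over both libraries, 2 members were more than 1.5-fold lower, since ADAM33 then passed the limit at -0.61. With a fold limit of 2, 1 member was higher and 0 were lower. With a minimum mean of 10 CPM, which drops ADAM15, 0 members were lower and the median of the members was -0.11. At resolutions of 0.3 and 0.8, 5 members again had a single direction in every cluster, and without integration only 1 of 8 clusters held enough cells of both libraries. Median co-detection stayed between 1.00 and 1.01 in both libraries, also without the cycling-like cluster, an alternative chosen after seeing the data. With another random draw the share with ADAM19 in TGF-β1 was 72.3% and that with ADAM9 in control 96.04%, both just outside their intervals. Shares of cells depend on depth, and at 10000 UMIs per cell ADAM12 was found in 46.5% and 77.1% of cells. The counts cannot show protein, prodomain removal or shedding, and values for the separate mares are not analysed here.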

Other observations

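The barcodes that the filters removed, 519 in control and 611 in TGF-β1, enter the comparisons above only under the alternative cell filters. Of them, 38 and 8 had at least 20000 UMIs. In their summed counts ADAM12 stood at 163 CPM in control and 529 CPM in TGF-β1 (617 and 2359 UMIs), both above the level in kept cells. ADAM9 stood at 492 and 388 CPM, ADAM17 at 62.6 and 85.0 CPM (237 and 379 UMIs) and ADAM10 at 60.0 and 67.7 CPM (227 and 302 UMIs), while ADAM33 stood at 79.8 and 51.4 CPM, below its level in kept cells.

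Thinned cells in which 3 or more cycling markers were found, 116 in control and 139 in TGF-β1, carried ADAM10 more often than the other cells, in 62.9% against 50.5% of control cells and in 54.7% against 46.3% of TGF-β1 cells. ADAM12 was detected in 69.0% against 64.5% of control cells and in 95.0% against 90.6% of TGF-β1 cells. ADAM33 was detected in 75.9% against 81.1% and in 59.7% against 64.7%. The direction differed between the libraries for ADAM15, detected in 10.3% against 14.9% of control cells and 10.8% against 8.18% of TGF-β1 cells, and for ADAM9, in 97.4% against 96.8% and 92.8% against 93.7%. None of these differences was tested.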
